A study of Mus musculus with 2 samples.

Results

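The genes described here belong to the old microRNA families miR-10, miR-99/100 and miR-125, of which the mouse count tables hold 8: Mir10a, Mir10b, Mir99a, Mir99b, Mir100, Mir125a, Mir125b-1 and Mir125b-2. The genes were chosen by symbol in the GENCODE M21 annotation, and all 8 were found among 2202 microRNA genes. They were measured by sequencing RNA of the microRNA size range from the hearts of B6CASTF1/J females at an age of 2 months, hybrids of the C57BL/6J and CAST/EiJ strains. The labels give 1 group of 2 biological replicates, name no treatment and offer no contrasting condition. Both replicates carry the same donor label although they are numbered as different females, so the labels do not settle whether they are 2 animals. With 1 library on each side, any p-value below tests whether these 2 libraries differ beyond counting error, and no effect of a condition.

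A microRNA recognises its target messenger RNAs mainly through its seed, bases 2 to 8 of the mature strand, so genes with the same seed are treated as a family. Mir10a and Mir10b lie within the Hox gene clusters, which pattern the body axis. Mir99a, Mir99b and Mir100 each lie upstream of a let-7 gene and a miR-125 gene, an arrangement that goes back to a single ancestral cluster. The miR-99 and miR-100 microRNAs are known to repress growth signalling through Mtor and Igf1r. The miR-125 microRNAs are the vertebrate relatives of the worm developmental timing gene lin-4. In the vessel wall, miR-10a is known for damping inflammatory signalling in endothelium.

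The mature 5p sequences are shown because they decide both the family of a gene and whether its reads can be told from those of a relative. All 8 genes had a mature 5p entry in RefSeq (GRCm38.p6), with 7 distinct sequences. Capitals mark the seed.
miR-10a-5p: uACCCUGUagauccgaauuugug
miR-10b-5p: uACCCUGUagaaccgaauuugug
miR-99a-5p: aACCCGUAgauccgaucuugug
miR-99b-5p: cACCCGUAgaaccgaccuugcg
miR-100-5p: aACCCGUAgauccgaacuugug
miR-125a-5p: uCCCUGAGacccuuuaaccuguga
miR-125b-5p, from Mir125b-1 and Mir125b-2: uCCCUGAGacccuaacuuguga

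The seeds sort the 8 genes into 3 families: ACCCUGU in 2 genes, ACCCGUA in 3 and CCCUGAG in 3. Counted from the 5′ end, miR-10a and miR-10b differ by 1 substitution, U12A. Mature miR-99a and miR-100 likewise differ by 1, U16A, and miR-99a differs from miR-99b by 4 (A1C, U11A, U16C and U21C). Among all annotated hairpins, each of the first 6 printed sequences was found only in its own gene. The miR-125b sequence was found in both Mir125b hairpins, which share 24 bases in a row. Reads with several mapping places were assigned to no gene, so the counts of these 2 genes leave out reads that cannot be assigned to 1 copy, and their levels are uncertain. Reads of the miR-125b 3p arms can be assigned, since these differ between the copies and are shown for that reason.
miR-125b-1-3p: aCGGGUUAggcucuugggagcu
miR-125b-2-3p: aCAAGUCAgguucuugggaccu

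No member other than the Mir125b pair shares 20 bases with another microRNA hairpin. The longest stretch shared by the Mir99a and Mir100 hairpins is 16 bases, and that shared by Mir10a and Mir10b is 15. How many mismatches the alignment allowed is not given in the sources used here, so a division of reads between these near-identical pairs was not tested.

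In mm10, the Mir99a cluster lies on chromosome 16 inside the transcript Mir99ahg. Mir99a (ENSMUSG00000065530.1, chr16:77598936-77599000) and Mir125b-2 (ENSMUSG00000065472.1, chr16:77646273-77646343) both sit in its introns, and Mir125b-2 also overlaps part of an exon of C130023A14Rik. Mir99a also lies opposite an intron of the coding gene Gm11146. The Mir99b cluster lies on chromosome 17 inside the coding gene Spaca6. Mir99b (ENSMUSG00000065396.1, chr17:17830188-17830257) is intronic and Mir125a (ENSMUSG00000065479.2, chr17:17830812-17830879) overlaps part of a Spaca6 exon. The Mir100 cluster lies on chromosome 9 in introns of the noncoding transcripts 3110039I08Rik and Gm49317, with Mir100 (ENSMUSG00000093011.1) at chr9:41531425-41531504 and Mir125b-1 (ENSMUSG00000093354.1) at chr9:41581926-41582002. Mir100 lies opposite an exon of Gm48742, and Mir125b-1 lies in an exon of Gm28119 on its own strand. All 3 clusters keep the order miR-99 or miR-100, let-7, miR-125, but the Mir99b cluster spans 692 bases where the others span 47408 and 50578.

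**Figure D1:**
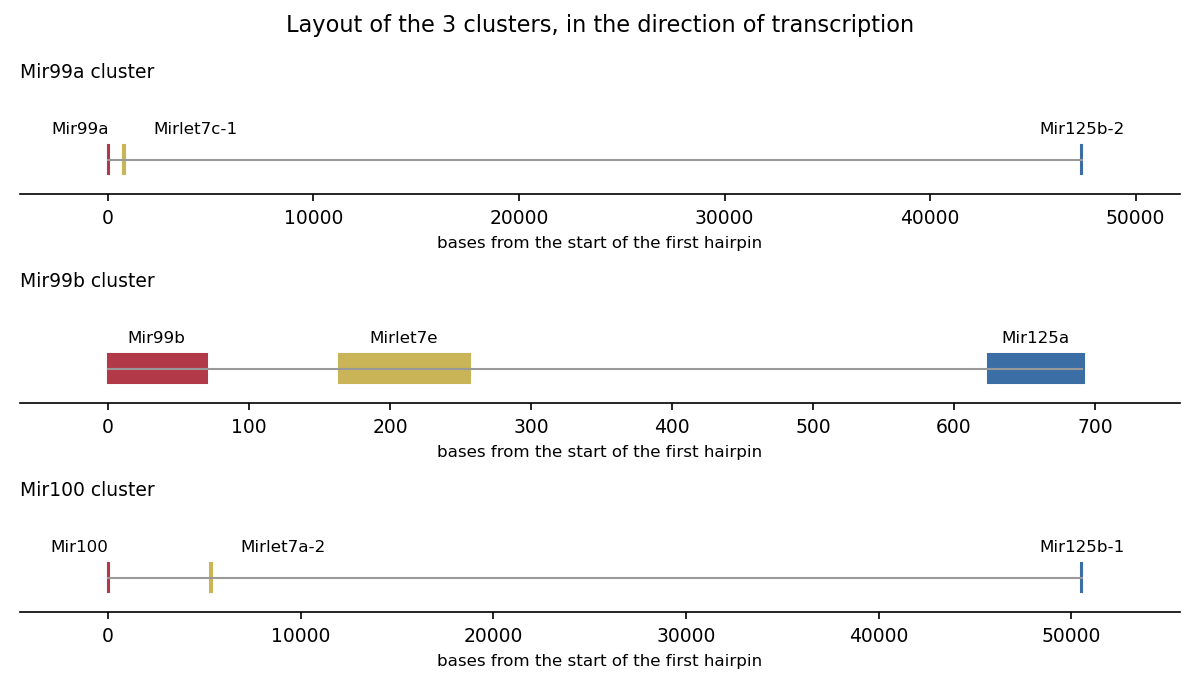
Hairpins of the Mir99a, Mir99b and Mir100 clusters, drawn by distance in bases from the start of the first hairpin (each panel has its own scale, and in the top and bottom panels the marks are wider than the hairpins). The Mir99b cluster spans 692 bases, against 47408 for the Mir99a cluster and 50578 for the Mir100 cluster.

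Outside these clusters, Mir10a (ENSMUSG00000065519.1, chr11:96317165-96317274) lies 993 bases before Hoxb4 and 11044 bases after Hoxb5, within no annotated gene. Mir10b (ENSMUSG00000065500.3, chr2:74726070-74726137) lies in introns of Hoxd3 and Hoxd4. All 8 genes are transcribed from the plus strand, and only 2 reads over both libraries fell on the opposite strand of a member.

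Levels are given as CPM, the gene's own-strand count scaled to a common total over all microRNA genes of each library. The libraries held 2424441 and 2770301 such counts, and 49.5% and 42.7% of all reads mapped to several places. All 8 members had at least 10 counts in both libraries, the limit used here for calling a gene detected, as had 306 genes in all. The replicates differed in marker genes of cell types. The 3 erythroid genes summed to 11488 CPM in replicate 1 and 95604 in replicate 2. The 6 fibroblast genes summed to 11329 and 2594 CPM, and no listed marker of either type was at 0. Most of each sum came from 1 gene, Mir451a (7816 and 86827 CPM) for the erythroid genes and Mir21a (10018 and 1810) for the fibroblast genes. By the test described with the comparison of the libraries, Mir451a and Mir144 were called higher in replicate 2. Mir486 (1710 and 1919 CPM) was not called. Of the 4 fibroblast genes detected, 3 were called lower and Mir199b was not called. The 7 cardiac muscle genes summed to 6048 and 8577 CPM, but of the 4 detected only Mir208a was called higher in replicate 2. The other 3 were called lower by the same test. Among these, Mir1a-2 (141 and 67 counts) shares 20 bases with another microRNA hairpin, so its level is uncertain. The sums leave out reads with several mapping places. The 4 endothelial genes summed to 77007 and 88163 CPM, with none called higher and 1 lower, and the 2 smooth muscle genes to 50667 and 44521, with 1 called lower. Because a CPM is a share of the library, a gene can be lower only because others are higher, and fewer cells of a type and less RNA per cell cannot be told apart.

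Together the 8 genes took 3.22% of microRNA counts in replicate 1 (95% exact Clopper-Pearson interval 3.20 to 3.25) and 5.62% in replicate 2 (5.59 to 5.65). Intervals here cover counting error only. The miR-99 and miR-100 family alone took 2.38% in replicate 1 and 5.04% in replicate 2. The miR-10 genes took 0.192% and 0.205%, and the miR-125 genes 0.647% and 0.369%. The 3 miR-99 and miR-100 genes made up 74.0% of the group's counts in replicate 1 and 89.8% in replicate 2. The counts are per gene and pool both arms of a hairpin, and they leave out miR-125b reads that mapped to both copies.

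Mir99a, the most abundant member, had 44815 counts in replicate 1 and 100263 in replicate 2, or 18485 and 36192 CPM. It ranked 13 and 11 among all microRNA genes and held 57.3% and 64.4% of the group's counts. Its relative Mir100, which differs by the single substitution above, had 8123 and 15218 counts, or 3350 and 5493 CPM. Mir99a exceeded Mir100 by 5.52 times in replicate 1 (exact interval of the ratio 5.39 to 5.65) and by 6.59 times in the other library (6.48 to 6.70), so the ratio moved less than either gene did. Mir99b had 4857 and 24241 counts, or 2003 and 8750 CPM. It ranked 48 in replicate 1 and 19 in replicate 2, and by fold its levels were the farthest apart in the group.

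Mir125a, the partner of Mir99b, had 14623 and 9606 counts, or 6031 and 3467 CPM. It was the second most abundant member in replicate 1 and the fourth in replicate 2. Mir125b-1 had 601 and 348 counts (248 and 126 CPM) and Mir125b-2 had 463 and 273 (191 and 98.5 CPM). The reads that could be assigned favoured Mir125b-1 by similar ratios, 1.30 (1.15 to 1.47) in replicate 1 and 1.27 (1.08 to 1.499) in replicate 2. These low levels do not measure mature miR-125b, for the reason given above.

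In CPM, the Hox-embedded pair was close between the libraries. Mir10a had 2976 and 3822 counts, or 1228 and 1380 CPM, and Mir10b had 1689 and 1865, or 697 and 673 CPM. Mir10a exceeded Mir10b in both libraries, by 1.76 times (1.66 to 1.87) and 2.05 times (1.94 to 2.17).

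Ordered by mean, the levels were 27338 ± 12521 CPM for Mir99a (SD, n = 2), 5377 ± 4771 for Mir99b, 4749 ± 1813 for Mir125a, 4422 ± 1515 for Mir100, 1304 ± 108 for Mir10a, 685 ± 16.6 for Mir10b, 187 ± 86.5 for Mir125b-1 and 145 ± 65.4 for Mir125b-2. Mir99a stood above every other member in both libraries, and Mir10a and Mir10b each kept their place. Mir99b, Mir125a and Mir100 cannot be ordered: their ranges overlapped, and the sequence was Mir125a, Mir100, Mir99b in replicate 1 and Mir99b, Mir100, Mir125a in replicate 2. The ranges of Mir125b-1 and Mir125b-2 overlapped too, but by assigned reads Mir125b-1 was the higher in both libraries.

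**Figure D2:**
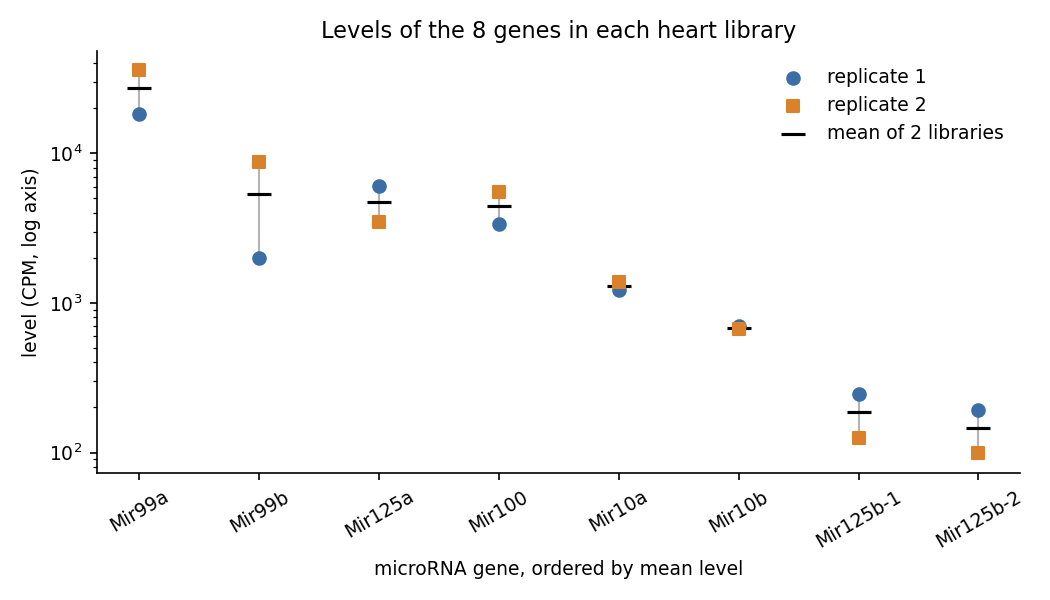
Level of each member in CPM (log axis) in replicate 1 (circles) and replicate 2 (squares), with a black dash for the mean of the 2 libraries. Mir99a, Mir99b and Mir100 are higher in replicate 2, the 3 miR-125 genes are lower, and Mir10a and Mir10b nearly coincide.

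Comparison of the 2 libraries showed opposite differences for neighbouring genes of different families, as counted from reads assigned to 1 gene. Mir99b was 4.37-fold higher in replicate 2 (exact interval 4.24 to 4.51), Mir99a 1.96-fold (1.94 to 1.98) and Mir100 1.64-fold (1.60 to 1.68). Mir125b-1 was 1.97-fold lower in replicate 2 (1.73 to 2.26), Mir125b-2 1.94-fold lower (1.67 to 2.26) and Mir125a 1.74-fold lower (1.70 to 1.78). By a two-sided exact binomial test with Benjamini-Hochberg adjustment over 306 genes, each of these 6 differed beyond counting error, with a largest adjusted p of 4.0e-18 for Mir125b-2. Mir10a was 1.12-fold higher (adjusted p = 4.4e-06 by the same exact test), short of the 1.5-fold asked of a call. Under the other scalings it was 1.31-fold higher at most (TMM factors), also short. Mir10b did not pass with CPM scaling (adjusted p = 0.40, exact binomial test). It passed in the other direction, higher in replicate 2, with TMM factors (adjusted p = 0.0010, exact binomial test), DESeq2 factors (0.0071) or totals of all reads (0.0026), by 1.12-fold at most, so its direction rests on the scaling.

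Calls at 1.5-fold were common in these libraries. Of all 306 detected genes, 36.6% were called, that is, passed the test with a fold of 1.5 or more, 11.1% higher in replicate 2 and 25.5% lower. Members called were 3 of 8 higher and 3 of 8 lower. At any fold, 61.1% of the detected genes passed, and 7 of the 8 members, all but Mir10b. Their median log2 ratio was 0.06 against -0.19 for all detected genes, with an SD over the members of 1.09 against 0.83. Of the 67 genes at 1000 CPM or more, 41.8% were called, 14.9% higher and 26.9% lower, and of the 5 members at that level 3 were higher and 1 lower. With TMM scaling 52 of the 306 genes were higher and 46 lower, and Mir125a, still lower in replicate 2 (log2 ratio -0.58), fell just short of the 1.5-fold asked. The 6 calls held when Mir451a, the main erythroid gene, was left out of the library totals. The part of the other differences in cell type markers was not tested.

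**Figure D3:**
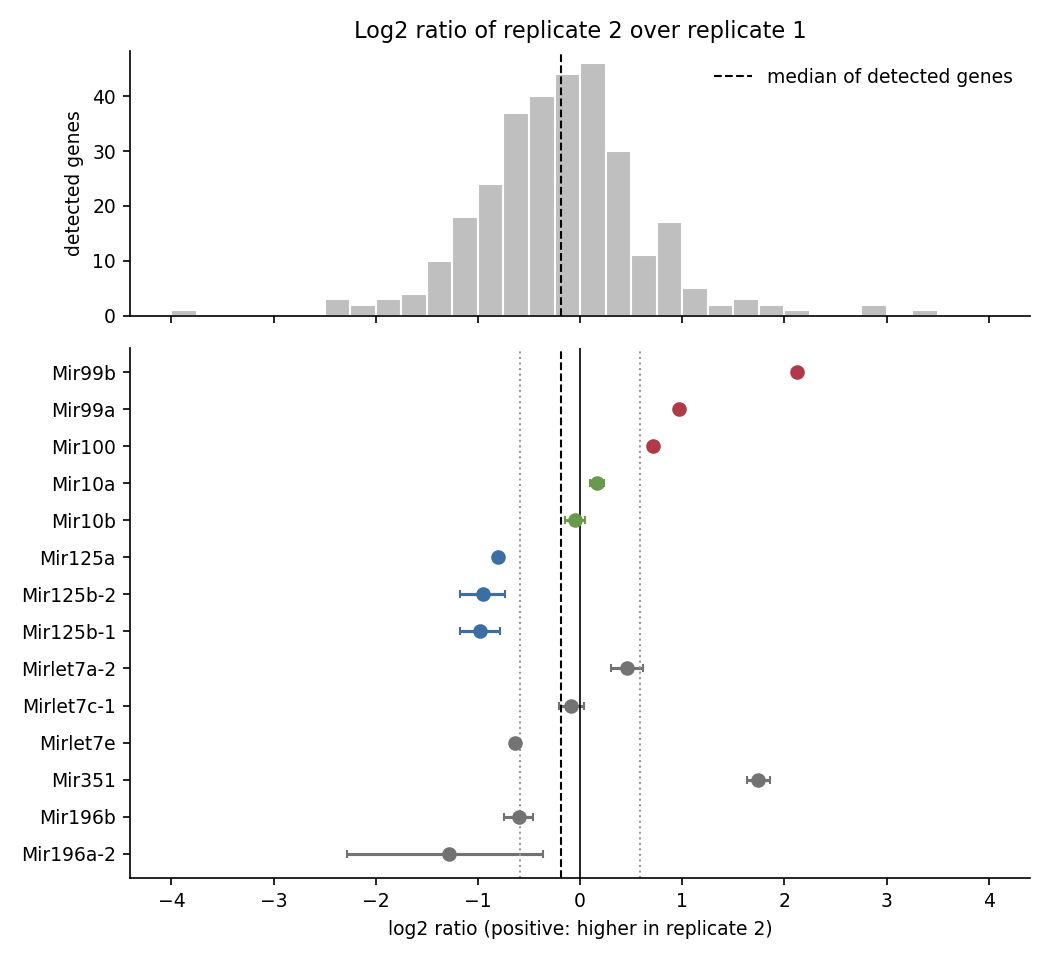
Log2 ratio of replicate 2 over replicate 1: above, a histogram of the 306 detected genes, and below, the members and their relatives with 95% exact intervals (dashed line, median of detected genes at -0.19; dotted lines, 1.5-fold). The miR-99 and miR-100 genes lie to the right, Mir10a and Mir10b near 0 and the miR-125 genes to the left.

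In each of the 3 clusters the miR-99 or miR-100 gene was called higher in replicate 2 and the miR-125 gene called lower. For Mir125b-1 and Mir125b-2 the call covers only reads that could be assigned to 1 copy. The direction of mature miR-125b-5p was not tested. A ratio of counts within a library does not depend on the scaling. Mir99b counts were 0.332 times those of Mir125a in replicate 1 (exact interval 0.321 to 0.343) and 2.52 times in replicate 2 (2.46 to 2.58), a 7.60-fold change that reversed their order although the hairpins lie within 692 bases. For Mir99a and Mir125b-2 the ratio moved from 96.8 to 367, or 3.79-fold, and for Mir100 and Mir125b-1 from 13.5 to 43.7, or 3.24-fold. The values of the last 2 ratios rest on the reads that could be assigned to 1 copy of Mir125b.

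The let-7 gene in the middle of each cluster followed neither neighbour uniformly. Mirlet7e had 16315 counts in replicate 1 and 12018 in replicate 2, or 6729 and 4338 CPM, a 1.55-fold lower level in replicate 2. This fell below 1.5-fold with TMM or DESeq2 scaling, totals of all reads or totals without Mir451a. With totals without the 8 members it was 1.51-fold. Its ratio to Mir125a was 1.12 (1.09 to 1.14) and 1.25 (1.22 to 1.29), so these 2 neighbours kept close to the same proportion while Mir99b did not. Mirlet7a-2 had 556 and 875 counts, 1.38-fold higher, and Mirlet7c-1 had 1075 and 1157, 1.06-fold lower in CPM (adjusted p = 0.23, exact binomial test). Both share 20 bases with other let-7 hairpins and are uncertain. The hairpin of Mirlet7e lies opposite the microRNA gene Gm25927, and its reads were counted only in the strand-specific column.

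Shares within a cluster show the same contrast. Mir99b made up 13.6% of its cluster in replicate 1 (13.2 to 13.9) and 52.9% in replicate 2 (52.4 to 53.3), while Mir125a made up 40.9% and 20.9%. The cluster as a whole took 1.48% and 1.66% of microRNA counts, so its sum moved far less than its parts. Mir99a made up 96.7% and 98.6% of its cluster, and Mir100 made up 87.5% and 92.6%. These 2 shares would be lower if reads shared between the Mir125b copies or between let-7 copies had been counted.

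**Figure D4:**
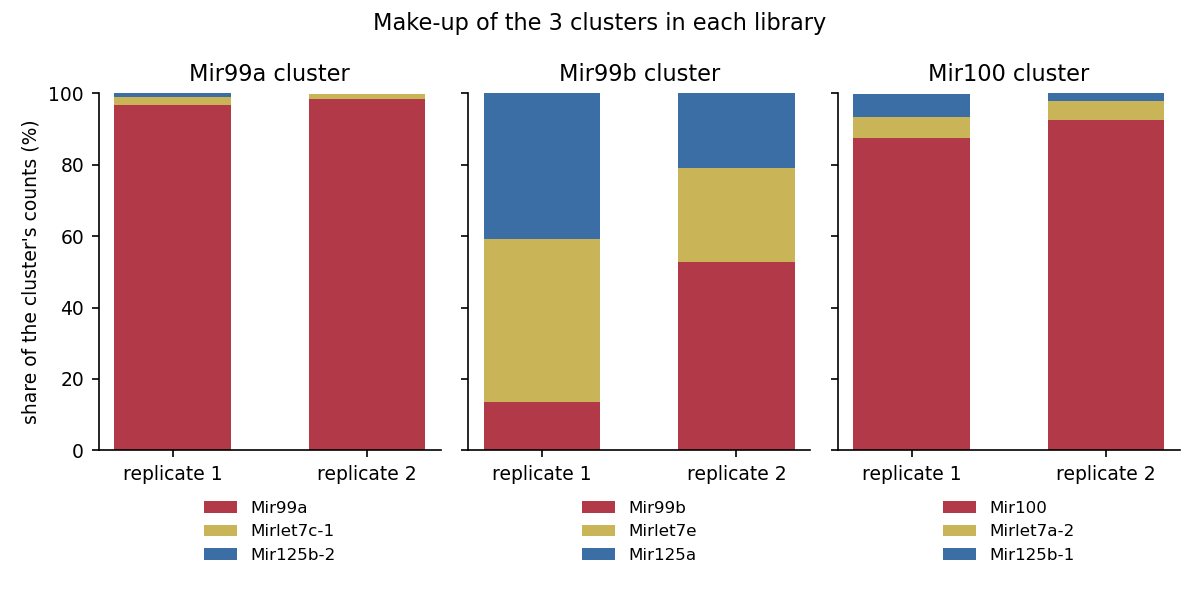
Share of each cluster's counts (percent, bars from 0 to 100) taken by its miR-99 or miR-100 gene, its let-7 gene and its miR-125 gene in each library. The Mir99b segment grows from 13.6% to 52.9% and the Mir125a segment shrinks from 40.9% to 20.9%.

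Other genes with a member's seed were looked for among 1738 mature entries. None carried ACCCGUA or ACCCUGU, while CCCUGAG was found in Mir351, Mir6367 and Mir6394. Mir351, an X-linked gene, has the mature sequence shown here for comparison with miR-125a.
miR-351-5p: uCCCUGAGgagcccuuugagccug
It had 859 and 3290 counts, or 354 and 1188 CPM, and was 3.35-fold higher in replicate 2 (exact interval 3.11 to 3.62). Of the genes with the CCCUGAG seed, Mir125a was thus lower in replicate 2 and Mir351 higher. The 2 Mir125b genes were lower too, but their counts leave out the 5p reads with this seed that matched both copies. Mir6367 and Mir6394 had no counts in either library. Mir670, also looked at as a possible relative, does not carry CCCUGAG at bases 2 to 8 of an entry and had 2 and 0 counts.

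The other Hox microRNAs were less abundant than the miR-10 genes. Mir196b, in an exon of Hoxa9, had 937 and 706 counts (386 and 255 CPM), and its 1.52-fold lower level in replicate 2 fell below 1.5-fold under each of the 5 other scalings tried. Mir196a-2, in an intron of Hoxc5, had 32 and 15 counts. Mir615, also in an intron of Hoxc5, had 7 and 9, and Mir196a-1 had none, a count of 0 that allows levels of 1.24 CPM and 1.08 CPM, respectively (3 counts). The Mir196a genes share 20 bases with each other, so their counts are uncertain.

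Among detected genes outside the group with at least 1000 CPM, those with the log2 ratio nearest to Mir99a (0.97) were Mir127 (0.97) and Mir423 (1.11). For Mir99b (2.13) they were the cardiac muscle gene Mir208a (1.93) and the erythroid gene Mir144 (1.81). The other detected cardiac muscle genes went the opposite way, Mir499 at -0.72, Mir208b at -1.10 and Mir1a-2, whose count is uncertain, at -1.27. With 2 libraries this likeness is a single number per gene and a description only. By ratio, Mir99b ranked 4 from the highest of the 306 detected genes, Mir99a ranked 18 and Mir100 ranked 35. From the lowest, Mir125b-1 ranked 43, Mir125b-2 ranked 47 and Mir125a ranked 62, which places the miR-125 genes within the spread of many other genes.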

How the data were processed

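The authors deposited read counts per microRNA gene without normalization, made on mm10 with the GENCODE M21 annotation, per the labels and the text deposited with the tables. Which aligner and counter they used is not given in the sources used here. Of 3 count columns, identified from their values, the own-strand column was used. The 4 lines that name no gene held 70.0% and 65.3% of reads and were left out. Counts were scaled to CPM of the library's microRNA total. Genes with at least 10 counts in both libraries were compared by a two-sided exact binomial test, adjusted over all 306, and called at an adjusted p under 0.05 with at least 1.5-fold. The test was checked on simulated counts with counting error only, so the check does not cover variation between animals. With 1 group, edgeR (4.0.16) and DESeq2 (1.42.0) gave scaling factors only, as alternatives. All 2202 identifiers matched M21, which gave positions and hairpins. Mature sequences are from RefSeq, where 6 members had a hairpin entry (not Mir99b and Mir125b-2). Genes named in the text are the 8 members, the let-7 genes of their clusters, the other Hox microRNAs, genes with the same seed, and the 2 genes nearest in ratio to Mir99a and to Mir99b. The members and lists were chosen with earlier results of these data known. Python 3.11.15 with scipy 1.17.1 and R 4.3.3 were used.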

Additional observations from a re-analysis of the deposited data

Results flagged for a closer look

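Reads that mapped to several places are in the tables but belong to no gene: 3992614 in replicate 1 and 3410568 in replicate 2, against the limit of 3 reads set for a count of 0. They were set apart here because they are a signal outside the counts compared. The tables do not say which genes they came from, so how many are miR-125b reads was not tested.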

How the results depend on the processing

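No paired analysis was possible because the labels give a single group. All 8 members were detected at every count minimum tried and in the either-strand column. The group's mean share of 4.42% was 1.46% with all reads as the denominator and 1.69% without Mir99a, both by construction. It ran from 3.22% to 5.62% with 1 replicate left out. With the either-strand column the mean share was 6.01% (4.10% in replicate 1 and 7.92% in replicate 2). Mean levels of the members in that column were from 1.32-fold (Mir125b-1) to 1.38-fold (Mir99b) those reported. The members' counts were the same in both columns, except Mir10a (2977 and 3823 against 2976 and 3822). The higher shares and levels thus come from smaller library totals in that column, where Mirlet7e, for one, had 0 counts. Of the 6 members called, 5 were called with TMM factors, where Mir125a had a log2 ratio of -0.58, just short of 1.5-fold. With a 2-fold threshold 1 was called, Mir99b, since Mir99a stood at 1.96-fold. Under the other scalings Mir99a ran from 2.01-fold (totals without the 8 members) to 2.28-fold (TMM factors). Whether Mir99a reaches 2-fold thus rests on the scaling. No called member changed direction under any scaling tried. TMM factors moved the median log2 ratio of all genes from -0.19 to 0.03. A difference between libraries cannot be recomputed with 1 library left out, and each rests on both.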
